A study of Arabidopsis thaliana with 7 samples.

Results

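Peaks called from DNA pulled down with an antibody against UV lesions, on the gene-rich arms of the 5 nuclear chromosomes of Arabidopsis thaliana, and among them the peaks that were wider than the narrowest peak of their own list, are described here. A peak was a member when its width exceeded the smallest width in its list and its midpoint lay outside the 5 pericentromeres, outside the first 12000 bp of chromosome 2 and outside the DDB2 locus on chromosome 5. Of 2936 deposited peaks in 6 libraries, 223 met this rule, and a further 1628 arm peaks had exactly the smallest width. Members were thus selected on the width and position of the called peaks, so widths and the number and share of members are given as a description with no test, as are the scores, which come from the same calls.

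All libraries were made from 3 week-old seedlings of wild-type Col-0, grown in 16 h light and 8 h dark. DNA was immunoprecipitated with an antibody against cyclobutane pyrimidine dimers from plants treated with UV-C at 3000 J per square metre (4 libraries) or from plants labelled as not treated (2 libraries, called untreated). The 1 input library has no peak list and entered no comparison, but all 6 lists were called against pooled input and so share it. Whether replicates were separate plants or cultures is not in the labels. Each p-value below therefore measures the spread between these libraries alone, which may be technical.

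Cyclobutane pyrimidine dimers join neighbouring pyrimidines on the same DNA strand and are the main lesion that UV-C makes. Plants remove them by photolyases, which reverse the bond using light, and by nucleotide excision repair, which cuts out the damaged stretch. Lesions form across the whole genome, and a peak in a list marks a stretch where the immunoprecipitated DNA exceeded the input.

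The lists held 228 to 677 peaks, of which 138 to 405 lay on the arms. Their smallest widths were 147, 136, 145 and 124 bp in UV replicates 1 to 4 and 129 and 122 bp in untreated replicates 1 and 2. Lists therefore differ in what counts as wide, and widths are also given as multiples of the smallest width of the list. UV replicate 1 held 5 of the 6 members wider than 400 bp, and UV replicate 4 held the other. UV replicate 2 had the shortest list.

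UV replicates 1 to 4 held 47, 15, 29 and 65 members, and untreated replicates 1 and 2 held 28 and 39. The untreated values lay inside the range of the UV values. The UV libraries averaged 39 ± 21.7 members (SD, n = 4) and the untreated ones 33.5 ± 7.78 (SD, n = 2). Without UV replicate 4, the mean with UV was lower than the untreated mean, with a difference of -3.17 members, and without untreated replicate 1 the difference was 0.

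As a share of arm peaks, members made up 14.4% (95% interval 10.8 to 18.7%), 10.9% (6.21 to 17.3%), 9.76% (6.64 to 13.7%) and 17.4% (13.7 to 21.7%) of UV replicates 1 to 4. The untreated lists gave 8.97% (6.05 to 12.7%) and 9.63% (6.94 to 12.9%). Each UV library was above both untreated ones, UV replicate 3 only narrowly (9.76% against 9.63%). The intervals treat the peaks of a list as independent, so they do not compare the groups. Means were 13.1% ± 3.49 (SD, n = 4) and 9.30% ± 0.463 (SD, n = 2). The order turned when only peaks scoring above their list's median were kept, where the UV minus untreated difference was -25.1 percentage points. That filter left few and unequal numbers of minimum-width arm peaks. It kept 92 of 279, 48 of 123, 23 of 268 and 36 of 308 in UV replicates 1 to 4, and 9 of 284 and 25 of 366 in the untreated lists.

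Most members were under 1.75 times as wide as the smallest peak of their list. Of the 223, 28 exceeded the smallest width of their list by 5 bp or less, and the narrowest member of each list was 1 bp above it, for example 148 bp against 147 bp in UV replicate 1. Altogether 84 members were under 1.25 times the smallest width, 73 were from 1.25 to under 1.75 times, 58 from 1.75 to under 2.25 times and 8 were 2.25 times or more. Of these 8, UV replicate 1 held 6 and UV replicate 4 held 2, while UV replicates 2 and 3 and both untreated lists held 0. UV lists held 156 of the 223 members. Median widths were 205, 213, 188 and 176 bp in UV replicates 1 to 4, which is 1.39, 1.57, 1.30 and 1.42 times the smallest width. The untreated medians of 177.5 and 170 bp were 1.38 and 1.39 times it, inside the range of the UV libraries.

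**Figure D1:**
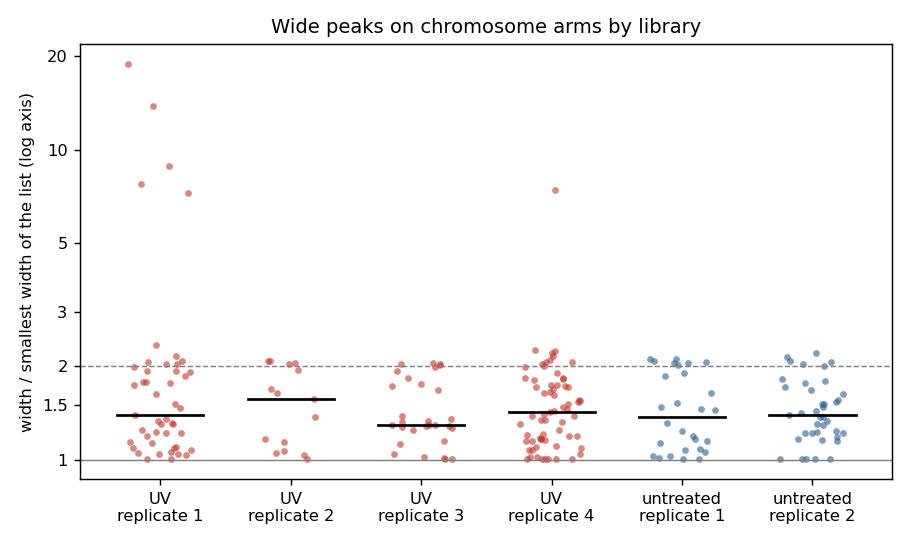
Width of every wide arm peak divided by the smallest width of its list (log axis), by library, with UV libraries in red, untreated ones in blue and a bar at the median. The medians lie between 1.30 and 1.57 in the 6 libraries, and the only members above 5 are in UV replicates 1 and 4.

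At 4 of the merged regions every library had a peak, and at 3 of these the peak was nearly the same each time. The 223 members formed 190 regions, of which 13 (6.84%) had a peak of any width in 2 or more libraries. Of all 1800 arm regions formed from peaks of any width, 18 did, which is 1%. A wide region offers more bases to be overlapped, all lists share the pooled input, and the 13 were not tested against the 18. Regions with a peak in both groups numbered 10 (5.26%, against 0.722% of all arm regions), and those with a peak in all 6 libraries 4 (2.11%, against 0.222%). All arm regions include the member sites. Of 1618 regions formed from minimum-width arm peaks, 13 (0.803%) had a peak of any width in 2 or more libraries. Of these 1618, 8 (0.494%) had one in both groups and 0 in all 6 libraries. A region was wide if any 1 of its peaks was, so a site with peaks in more lists had more chances to become one.

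The highest ranked of these lay in AT3G23460, a protein-coding gene, on chromosome 3 at 8413948 to 8414251 (TAIR10). Its peaks were 304, 278, 296 and 256 bp wide in UV replicates 1 to 4 and 268 and 248 bp wide in untreated replicates 1 and 2. By score the same peaks ranked 4, 4, 1 and 1 in the UV lists and 1 and 3 in the untreated ones, so the site stood at or near the top of each list with and without UV. The centres of the 6 peaks lay within 2 bp of each other. Each peak was close to the same multiple of the smallest width of its list, 2.03 to 2.08 times.

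The next region lay on chromosome 5 at 24741295 to 24741594 and overlapped the protein-coding gene AT5G61520, with the midpoints of its peaks 41.5 to 43.5 bp outside that gene. Its peaks measured 300, 282, 298 and 257 bp in UV replicates 1 to 4 and 266 and 253 bp in the untreated libraries, which is 2.04 to 2.07 times the smallest width. They ranked 5, 2, 3 and 2 by score in the UV lists and 1 and 4 in the untreated ones. Their centres also lay within 2 bp.

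On chromosome 2, at 11839450 to 11839749, the third region lay 2487 bp from the nearest gene, AT2G27775, a distance measured from the region's edge, as for the other regions near a gene. The peaks were 300, 282, 296 and 259 bp wide with UV and 265 and 252 bp wide without, and their centres lay within 2.5 bp. They ranked 12, 1, 2 and 5 by score in the UV lists and 3 and 5 in the untreated ones. At all 3 sites the UV and untreated ranks overlapped, and the peak of untreated replicate 2 was the narrowest of the 6.

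The fourth region, on chromosome 2 at 9723111 to 9723455, lay 160 bp from SQE2, a gene for squalene epoxidase, an enzyme of sterol synthesis. Its peaks were 345, 277, 293 and 253 bp wide in UV replicates 1 to 4, 245 bp wide in untreated replicate 2 and 133 bp wide in untreated replicate 1. In that last library the score ranked 73, tied with other peaks at 3.76. In the other 5 libraries it ranked between 5 and 10, with scores of 8.57 to 20.4.

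**Figure D2:**
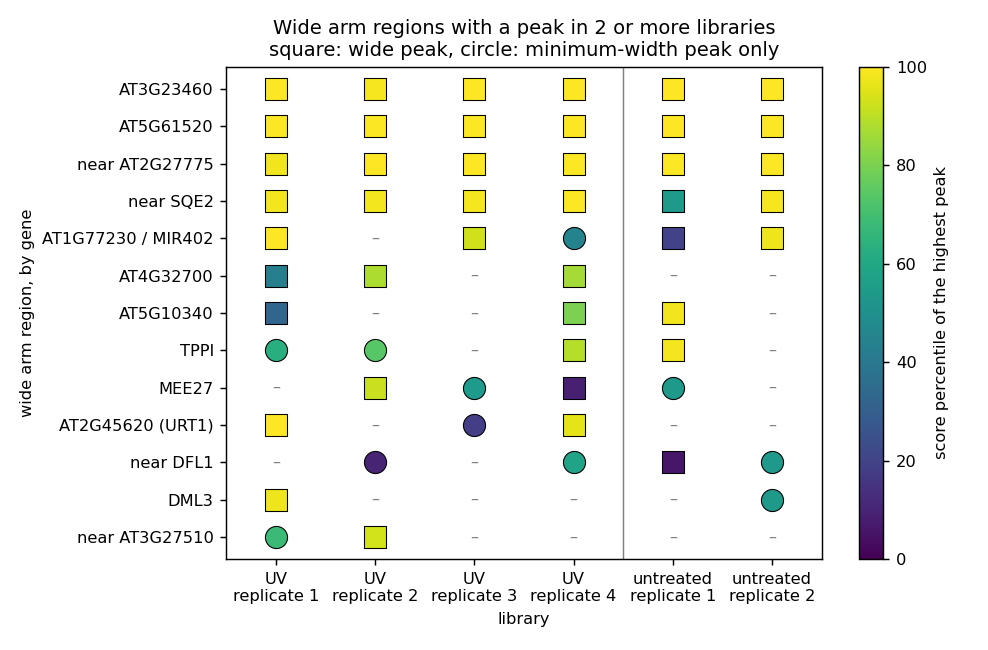
The 13 wide arm regions with a peak in 2 or more of the 6 libraries (rows, named by gene), with a square for a wide peak, a circle where the library had only a minimum-width peak and a dash for no peak, coloured by the score percentile of the highest peak in that list. The 4 highest rows are filled in all 6 columns, and the lower rows hold 2 to 5 libraries each.

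Below these 4 regions recurrence was partial, and most of it again crossed the groups. AT5G10340, a protein-coding gene, had wide peaks on chromosome 5 at 3253029 to 3253334 of 306 bp in UV replicate 1, 274 bp in UV replicate 4 and 265 bp in untreated replicate 1. The untreated peak had the best rank of these, 11, against 381 and 134 with UV. TPPI, which encodes a trehalose-6-phosphate phosphatase of sugar signalling, had a peak on chromosome 5 at 3160308 to 3160440 in untreated replicate 1 (133 bp, rank 8) and UV replicate 4 (126 bp, rank 77). These 2 peaks were barely wide, at 1.03 and 1.02 times the smallest width, and neither exceeded 147 bp, the largest of the smallest widths. UV replicates 1 and 2 had minimum-width peaks there, ranked 207 and 58.

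MEE27, also named JMJ15, encodes a jumonji domain protein of a family that demethylates histones. Its region on chromosome 2, at 14714729 to 14714990, held wide peaks of 141 bp in UV replicate 2 (rank 19) and 247 bp in UV replicate 4 (rank 566). UV replicate 3 and untreated replicate 1 had minimum-width peaks there. With peaks above the median score alone, 1 library was left. A region 1484 bp from DFL1, an auxin-conjugating enzyme gene of the GH3 family, was wide in untreated replicate 1 only, on chromosome 5 at 22129220 to 22129480 (261 bp, rank 388). Minimum-width peaks lay there in UV replicates 2 and 4 and in untreated replicate 2.

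Of the 190 regions, 3 had a peak in 2 or more UV libraries and in neither untreated one (1.58%). This compares with 0.222% of all arm regions and 0.247% of those formed from minimum-width peaks, and was not tested. The count became 6 without untreated replicate 1, but leaving out an untreated list can add such regions and cannot remove any. It was 2 without UV replicate 1 and 2 without UV replicate 2. AT4G32700, a protein-coding gene, had wide peaks on chromosome 4 at 15769698 to 15769973 of 155 bp in UV replicate 1 (rank 308), 264 bp in UV replicate 2 (rank 29) and 249 bp in UV replicate 4 (rank 92). None of these was among the 20 highest scores of its list. The second lay 3 bp from AT3G27510 on chromosome 3, at 10187987 to 10188131, with a wide peak of 145 bp in UV replicate 2 (rank 16) and a minimum-width peak in UV replicate 1 (rank 183). The third was AT2G45620, described next. The reverse pattern, peaks in both untreated lists without any UV peak, was found at 0 of the 190 regions, against 0.0556% of all arm regions. It needs both of 2 libraries, where the UV pattern needs any 2 of 4, so the counts are not comparable.

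The 6 members wider than 400 bp, a limit chosen after widths were seen, lay over 4 genes and were far wider than any other member, the next being 345 bp. AT2G45620 (URT1) encodes a uridylyltransferase that adds uridines to messenger RNA ends. It held the widest member, 2783 bp on chromosome 2 at 18792981 to 18795763 in UV replicate 1, with a score of 32.2 and rank 2. UV replicate 4 had 4 peaks there, 3 of them wide (135, 172 and 212 bp), UV replicate 3 had 1 minimum-width peak, and UV replicate 2 and both untreated libraries had none.

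AT1G77230, a protein-coding gene that holds the microRNA gene MIR402, had a peak of 2032 bp on chromosome 1 at 29015909 to 29017940 in UV replicate 1, with rank 3. This locus was also wide without UV, at 245 bp in untreated replicate 1 (rank 342) and at 184 and 175 bp in untreated replicate 2 (ranks 16 and 51). UV replicate 3 had a wide peak of 196 bp and UV replicate 4 a minimum-width one. With peaks above the median score alone, 3 libraries were left.

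DML3, a member of the DEMETER family of glycosylases that remove methylated cytosine from DNA, had 5 wide peaks in UV replicate 1, of 1069, 1141, 1306, 175 and 317 bp, and 1 minimum-width peak. Together these 6 covered 4155 bp within a span of 5676 bp on chromosome 4, and the wide ones ranked 43, 9, 15, 42 and 22. The gene's only peak in another library was of the smallest width, in untreated replicate 2. RPL24A, a ribosomal protein gene, had a peak of 922 bp on chromosome 2 at 15350464 to 15351385 in UV replicate 4 (rank 4) and no peak in any other library. At each of the 4 genes, then, peaks over 400 bp were found in 1 library.

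**Figure D3:**
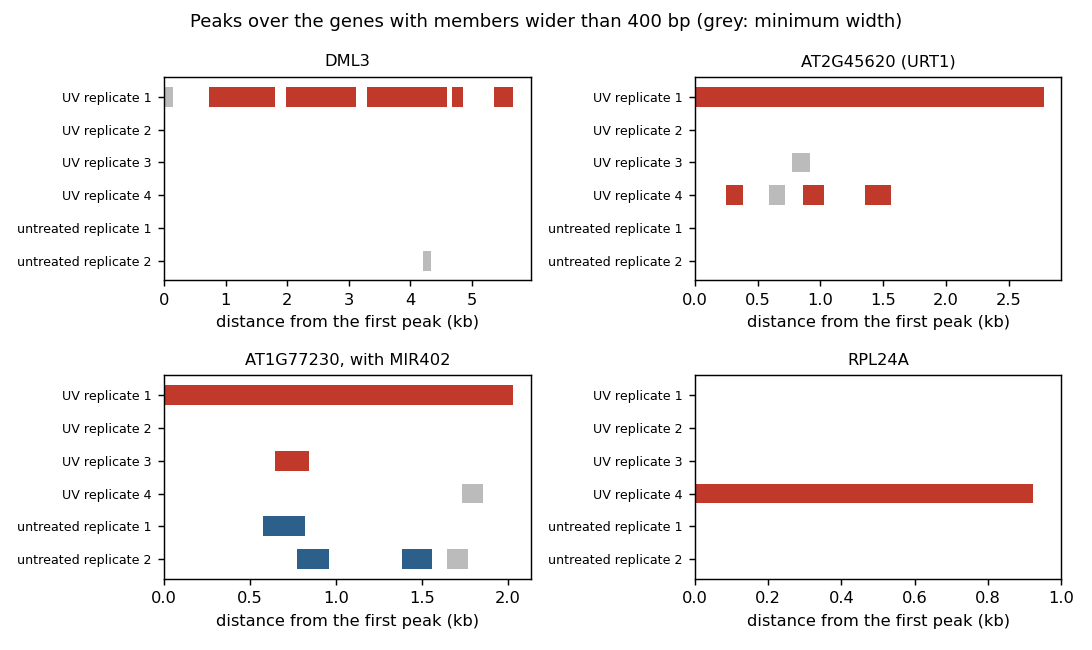
Peaks of each library over the 4 genes with a member wider than 400 bp, by distance in kb from the first base of the leftmost peak; red and blue bars are wide peaks of UV and untreated libraries and grey bars have the smallest width of their list. Broad bars occur in UV replicate 1 at DML3, AT2G45620 and AT1G77230 and in UV replicate 4 at RPL24A.

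In score, members ranked high within their lists, with exceptions at the very bottom. The median score percentile of members was 82.6, 89.5, 92.7 and 83.5 in the UV lists, in replicate order, and 93.9 and 91.1 in the untreated lists. For minimum-width arm peaks it was 38.6, 47.6, 54.5 and 39.7 with UV and 53.7 and 53.8 without. Members took 8, 7, 4 and 5 of the 20 highest scores of UV replicates 1 to 4 and 11 and 7 of those of the untreated lists. In every library the arm peaks among those 20 were all members.

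Yet 22 members had scores in the lowest 25% of their list. UV replicates 1 to 4 contributed 3, 0, 1 and 9 of them, the untreated libraries 5 and 4. Their median width was 1.88 times the smallest width, against 1.35 times for the other 201 members, so width and score did not rise together across all members. Among them was SGS3, which works with an RNA-dependent RNA polymerase to make double-stranded RNA in gene silencing, with a peak of 279 bp on chromosome 5 at 7945434 to 7945712 in UV replicate 4 at a score of 2.09 (tied rank 566). In untreated replicate 2, the peak in APRL7, an APR-like gene, had 261 bp and rank 515.

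**Figure D4:**
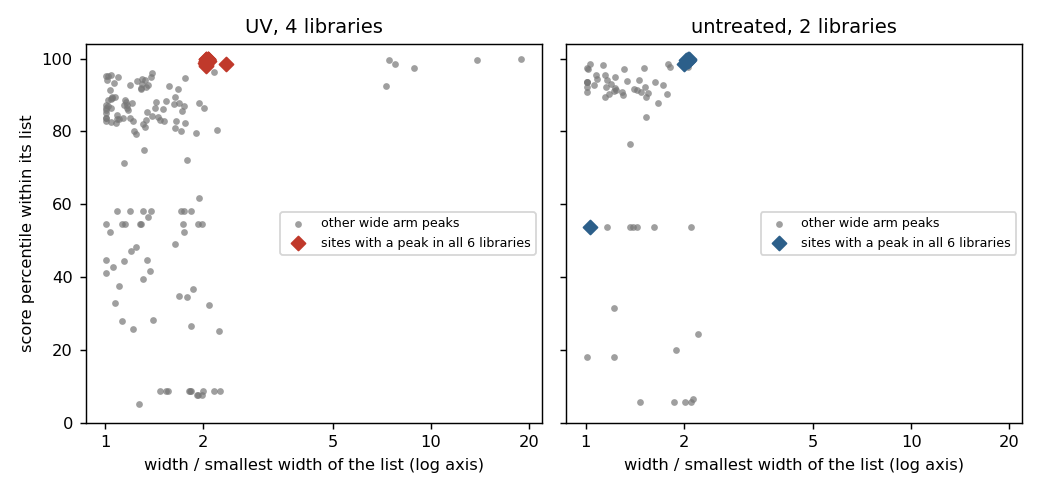
Score percentile of each wide arm peak within its list against its width as a multiple of the smallest width (log axis), for the 4 UV and the 2 untreated libraries; diamonds mark the 4 sites with a peak in all 6 libraries. Diamonds sit near 2 times the smallest width and above the 95th percentile except at the site near SQE2 in untreated replicate 1, and a row of peaks lies below the 10th percentile.

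Most members lay in protein-coding genes. Of the 223, 166 had their midpoint in a protein-coding gene and 57 in no annotated gene. None lay in a pseudogene or only in an RNA gene, and a count of 0 of 223 allows a share of up to 1.35%, taking 3 counts as the limit. Among minimum-width arm peaks 24 of 1628 (1.47%) lay in pseudogenes and 18 (1.11%) in RNA genes. The limit treats the 223 members as independent, though they formed 190 regions. It is therefore too low, and it shows no difference from these shares. Of the intergenic members, 41 of 57 were within 1000 bp of a gene. Their median distance, from the peak's midpoint to the nearest gene, was 373.5 bp. For the 459 intergenic minimum-width arm peaks it was 424 bp, so nearness to genes was not particular to members. The library medians of members averaged 340 ± 172 bp (SD, n = 4) in UV and 408 ± 12.2 bp (SD, n = 2) in untreated libraries. This difference gave an exact permutation p of 0.667 (adjusted p = 0.917), and its sign turned without UV replicate 2 (4.21 bp).

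Across UV replicates 1 to 4 the protein-coding share was 78.7%, 66.7%, 75.9% and 81.5%, and across untreated replicates 1 and 2 it was 60.7% and 69.2%. UV replicate 2, with 10 of 15 members, fell between the untreated libraries. The 95% intervals were broad, reaching from 38.4 to 88.2% for UV replicate 2 and from 40.6 to 78.5% for untreated replicate 1. Group means of 75.7% ± 6.45 (SD, n = 4) and 65.0% ± 6.02 (SD, n = 2) gave an exact permutation p of 0.2 (adjusted p = 0.5). The smallest p that 4 libraries against 2 can give is 0.0667, so no such comparison could pass 0.05. The difference of 10.7 percentage points was 2.45 (exact permutation p = 0.933) from 1.5 times the smallest width and 6.47 without untreated replicate 1. The 4 sites found in all libraries and the 4 broad genes weigh on these shares, since 3 of the 4 sites are intergenic by midpoint. Without those 39 members the shares were 80.6%, 81.8%, 83.3% and 84.2% with UV and 65.2% and 72.7% without, each UV library above both untreated ones. This alternative was chosen after seeing the data, and its difference of 13.5 percentage points had the smallest exact permutation p possible, 0.0667, unadjusted.

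Members were also set against minimum-width arm peaks of the same library. The protein-coding share was 72.1% ± 7.93 for members and 68.6% ± 3.07 for minimum-width peaks (SD, n = 6 libraries). The mean difference was 3.56 percentage points (exact sign-flip permutation p = 0.281). Members were lower in 2 of 6 libraries, the untreated ones (60.7% against 69.7% and 69.2% against 69.7%). They were higher in the 4 UV libraries, by 4.07 to 10.8 points. The mean thus joins differences of opposite sign, and the libraries share recurrent sites and the pooled input. With members limited to at least 1.5 times the smallest width, the difference was -0.738 points. It was 5.69 points when any overlap with a gene counted and 9.41 points without the 39 members at the recurrent sites and broad genes. Each had an exact sign-flip permutation p of 0.0938. The second setting kept the minimum-width peaks at those sites and genes. Any overlap favours members, which are wider by the rule, and the second setting was chosen after seeing the data. Neither is therefore evidence for a higher share in members. With 1 library left out it lay between 2.12 points (without UV replicate 4) and 6.07 points (without untreated replicate 1).

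**Figure D5:**
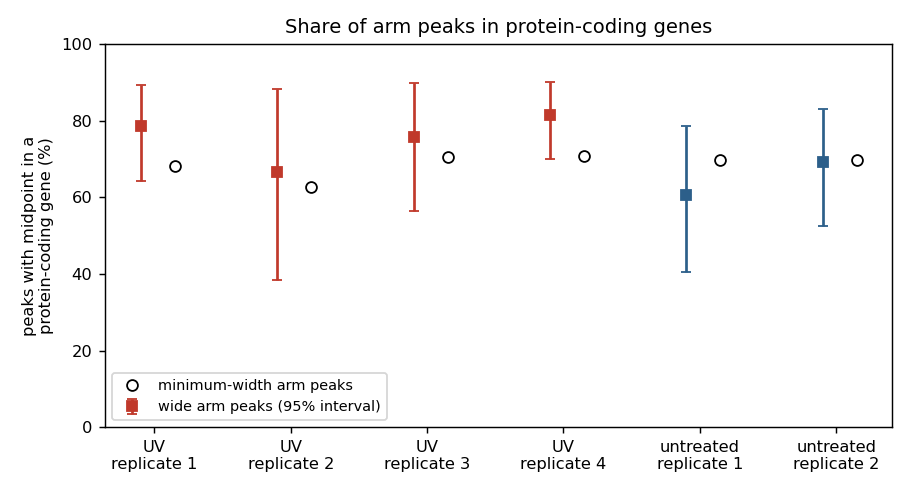
Percent of arm peaks with their midpoint in a protein-coding gene, by library, for wide peaks (squares with exact 95% intervals, UV in red and untreated in blue) and minimum-width peaks (open circles). The open circles lie between 62.6% and 70.8% and fall inside the interval of the wide peaks in all 6 libraries.

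Midpoints of members fell in 143 protein-coding genes, 106 with UV and 41 without. The 4 in both groups were AT1G77230, AT3G23460, AT5G10340 and TPPI, which is 3.77% of the genes with UV and 9.76% of those without. Minimum-width arm peaks hit 669 genes with UV and 447 without, of which 17 were in both, or 2.54% and 3.803%. These shares were not tested against each other. The 143 genes had a median length of 3198 bp, against 2960 bp for the 1099 genes hit by minimum-width arm peaks and 2078 bp for all 27432 nuclear protein-coding genes. A longer gene offers more bases to a midpoint, so genes hit by any peaks tend to be longer than all genes. The 27432 also include genes outside the arms. Minimum-width peaks also hit 10 of the 143, or 6.99%, beside 1099 of all 27432, which was not tested. Besides DML3, 1 gene held 2 separate regions, EMB3010 (RPS6B), a ribosomal protein gene, with 143 bp in UV replicate 4 (rank 77) and 148 bp in UV replicate 1 (rank 85).

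A neighbouring peak of the same list within 5 kb was found for 8 of 47, 0 of 15, 3 of 29 and 7 of 65 members of the UV lists, in replicate order. In the untreated lists it was found for 1 of 28 and 2 of 39. Longer lists offer more neighbours, and minimum-width peaks were not counted in this way, so no trait of members or of UV is read from these counts. DML3 accounted for 5 of the 8 in UV replicate 1, and AT2G45620 for 3 of the 7 in UV replicate 4. By chromosome, 54, 48, 39, 27 and 55 members lay on chromosomes 1 to 5. As a share of arm peaks this was highest on chromosome 2, at 19.8% with UV and 12.1% without, and both sites near SQE2 and AT2G27775 lie there.

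Members overlapped 154 of 27432 nuclear protein-coding genes (0.561%), the share against which the short lists below are to be read. The lists were not limited to the arms, and a gene inside an excluded stretch, as DDB2 was, could not carry a member. Of 14 genes of nucleotide excision repair and photolyases none carried a member, and the photolyase gene UVR3 carried a minimum-width peak. Of 4 genes of light and UV response none did. Of 12 RNA silencing genes SGS3 did, and RDR6, which encodes its partner polymerase, carried a minimum-width peak. Of 4 DNA demethylation genes DML3 did. No tRNA, rRNA, snRNA or snoRNA gene on the nuclear chromosomes was overlapped by a member, and of 326 microRNA genes 1 was, MIR402.

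The remaining members among the 3 widest of their library were each found in 1 library. In UV replicate 4, AAE1, an acyl activating enzyme gene, had 277 bp at rank 505. Untreated replicate 1 had 272 bp at rank 73 in AT3G23310 and 272 bp at rank 388 at 123 bp from the isoleucine tRNA gene AT4G26375. Untreated replicate 2 had 270 bp at rank 438 in AT1G61960.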

How the data were processed

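DNA immunoprecipitated with an antibody against cyclobutane pyrimidine dimers was sequenced from 4 UV and 2 untreated libraries, and the authors deposited 1 peak list per library, called against pooled input per the file names. CASAVA 1.8.2, Bowtie, MACS2 and the TAIR10 build are listed in the submitters' processing notes, with settings not given in the sources used here. The deposited score of each peak is a MACS2 value of unknown kind, used only for ranks within a list. Read depth is unknown.

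The rule was applied to all 6 lists. Members sharing 1 bp or more formed 1 region. Genes came from RefSeq's table of TAIR10.1, assumed to share TAIR10's nuclear coordinates, and each peak was placed by its midpoint. Distances of named regions run from the region's edge, and those in the test of intergenic peaks from the midpoint. Group values were compared by exact two-sided permutation over the 15 splits into 4 and 2, adjusted by Benjamini-Hochberg over 5 measures (2 of them, the number and share of members, are set by the rule and given with no p), and wide with minimum-width peaks by exact sign flips over 6 libraries. For single libraries, 95% intervals of a share are exact (Clopper-Pearson) and reflect counting error alone. Python 3.11.15, numpy 2.4.6, pandas 2.3.3, scipy 1.17.1 and matplotlib 3.10.9 were used, and the code was tested on simulated data. The table gives no strand, exons or sequence, so gene start windows and dipyrimidine content, though planned, were not analysed here.

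Members, gene lists and tests were chosen with earlier results of these data known. Named were all regions with a wide peak in at least 2 libraries, the 3 widest and 3 highest-scoring members of each library, genes with at least 2 separate regions, and hits of 4 identifier lists. Alternatives were leaving out each library, the replicate number as a block, a score filter, other width limits and overlap rules.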

Additional observations from a re-analysis of the deposited data

How the results depend on the processing

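Read depth is unknown and 2 untreated libraries limit all group comparisons. Under the alternatives, 81 recomputed differences, counts and mean score percentiles and 27 values of named regions were kept. Kept means the same direction for differences and within 1.5 times for counts. For the mean over libraries of the members' median score percentile it means within 1 SD of those medians. Direction alone does not show a stable size. Of the former 8 turned and 3 moved, of the latter 2 moved, and the pseudogene share, 0 throughout, is not counted. The difference in members per library (5.5, UV minus untreated) was -2.5 with the replicate block, a paired comparison of replicate numbers 1 and 2, and ranged from -3.17 to 13.5 with 1 library left out, with 0 without untreated replicate 1. The number only labels the libraries, and 2 pairs cannot show pairing. The difference in the share of arm peaks that were wide was -25.1 points among peaks above the median score, and 2.38 to 4.94 with 1 library left out. The difference in median intergenic distance (-67.5 bp) was 8.38 bp among those peaks, 13.9 bp from 1.5 times the smallest width and 71.1 bp without the recurrent sites and broad genes (chosen after seeing the data), and ranged from -130 to 4.21 bp with 1 library left out. The UV minus untreated protein-coding difference (10.7 points) was 2.45 from 1.5 times the smallest width and 6.47 to 14.98 with 1 library left out. The protein-coding difference between wide and minimum-width peaks was -0.738 points from 1.5 times the smallest width. Regions in both groups numbered 6 to 10 and UV-only recurrent regions 2 to 6 with 1 library left out, 6 in each case without untreated replicate 1. The cause of the reversals was not tested. Alternatives on gene start windows were not run, as the gene table gives no strand.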

Other observations

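Some genes that carried a member in 1 library were picked by their names after the members were known. They are neither a complete set nor a test of any pathway. PIN4, an auxin efflux carrier gene, had 193 bp at rank 36 in UV replicate 3, and LBD16, which encodes a transcription factor of lateral root formation, had 188 bp at rank 32 in the same list. TAR1, related to the aminotransferase of auxin synthesis, had 179 bp at rank 97 in UV replicate 1. A peak of 123 bp in untreated replicate 2 lay 504 bp, from its edge, from NPH4, which encodes the auxin response factor ARF7, at rank 478.

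The remodeller gene chr31 had 159 bp at rank 60 in untreated replicate 2, and ASG3 (CHR10) had 148 bp at rank 93 in UV replicate 1. HAC4, a histone acetyltransferase gene, had 148 bp at rank 227 in UV replicate 4. TIL2, which encodes a subunit of DNA polymerase epsilon, had 125 bp at rank 92 in that list. RUS6, named for root sensitivity to UV-B, had 158 bp at rank 54 in untreated replicate 2 and no wide peak with UV. STN7, which encodes a thylakoid kinase, had 167 bp at rank 362 in UV replicate 4, and PSAO, of photosystem I, had 226 bp at rank 566 there.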
